A study of Mus musculus with 4 samples.

Results

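Translation initiation and elongation factors are the proteins that bring ribosomes to mRNAs and carry them along the coding sequence, and 61 of the 55450 genes in the authors' deposited table encode them or proteins that act on them directly. They were taken by name: protein-coding genes of GENCODE mouse release M21 whose symbol begins with Eif1 to Eif6, Eef1 or Eef2, without the eIF2 kinases Eif2ak1 to Eif2ak4, Eif2s3y, Eef2k and Eef2kmt. Of 79 genes with such a symbol, 68 were protein-coding and 7 of those were left out by name. The rule uses no measured value, but it was chosen with earlier results of these data known. The symbol pattern also takes in genes that are not factors themselves, among them 4 eEF1A methyltransferases and the eIF4E-binding inhibitors, and these are described apart.

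The cells were mouse Th17 cells, the class of CD4 helper T cells that makes IL-17, and all were labelled as carrying a Cas9 transgene. No source used here names the promoter that drives Cas9. The genotype labels give this transgene while the design text calls the donor mice wildtype, and the labels do not settle how these go together. From animals of 8 to 12 weeks, naive CD4 T cells were stimulated with antibodies to CD3 (0.25 µg/mL) and CD28 (1 µg/mL), given a retrovirus after 24 h and then kept in TGF-β (0.3 ng/mL) with IL-6 (20 ng/mL) for 72 h. The virus was either PSIN with a guide against Adarb1 (sgAdarb1, 2 cultures) or empty PSIN without a guide (2 cultures), and each of 2 donor mice gave a culture of each kind. The control therefore carries Cas9 and virus but no guide, so Cas9 cutting as such is not matched in it. For 2 of the 4 samples the treatment tag differs from the title, and groups are named here by title. The fold changes are those the authors fitted, and no source used here says whether their contrast followed titles or tags. Naming by title therefore does not settle which libraries were compared, and a contrast by tag would not be the one described here. RNA depleted of ribosomal RNA was sequenced. The table gives a mean over all libraries and a fitted fold change with its standard error (SE) for each gene. Its 4 columns of single libraries carry no sample label, so values per culture and depths per library were not used here. Fold changes are read with sgAdarb1 as numerator, as the design text orders the groups. The table names no numerator, and with the opposite order every sign given here turns.

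Initiation begins when eIF2, loaded with GTP and initiator tRNA, joins the small ribosomal subunit together with eIF1, eIF1A, eIF3 and eIF5. The eIF4 factors bind the mRNA cap, unwind the leader and bring in this complex, which scans to a start codon. eIF5B then joins the subunits, and eEF1A and eEF2 drive elongation by delivering aminoacyl-tRNA and translocating the ribosome. T cell activation is known for a steep increase in translation. Part of the machinery is encoded by TOP mRNAs, whose leader begins with a pyrimidine tract read by mTOR-dependent repressors.

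The sequence around the transcription start is shown for Eef1a1, the most abundant member, and for the 4 members whose fold change was largest relative to its SE. Each run is written 5′ to 3′ from RefSeq on GRCm38.p6. It spans 75 bases, of which the last 25 follow the start that RefSeq annotates. The Eef1a1 window lies inside the GENCODE gene (78478449 to 78489151, minus strand), so the start of that gene is not settled here. Capitals mark a run of at least 8 C or T letters, or the letters TATAAA.
Eef1a1 (chr9:78481700-78481774, minus strand): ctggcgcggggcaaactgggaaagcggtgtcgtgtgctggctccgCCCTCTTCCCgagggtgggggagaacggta
Eef2 (chr10:81176581-81176655, plus strand): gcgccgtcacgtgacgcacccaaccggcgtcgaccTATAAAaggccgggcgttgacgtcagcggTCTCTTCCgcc
Eif3f (chr7:108934365-108934439, plus strand): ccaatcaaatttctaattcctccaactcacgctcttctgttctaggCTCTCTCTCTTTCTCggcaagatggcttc
Eif5b (chr1:37997960-37998034, plus strand): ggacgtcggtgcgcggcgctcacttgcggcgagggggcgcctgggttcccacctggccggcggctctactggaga
Eif4a2 (chr16:23107418-23107492, plus strand): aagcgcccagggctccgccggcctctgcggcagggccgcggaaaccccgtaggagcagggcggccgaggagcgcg
Of these 5, 4 were picked by their fold change, so nothing is read from which of them hold a run. RefSeq entries matched 45 of the 61 members, and 18 of these (40.0%) held such a run in the same window, against 32.4% of 16522 protein-coding genes with an entry. On the other strand, as a run of A or G, 10 of the 45 members (22.2%) held it, against 32.8% of protein-coding genes. TATAAA was found in 1 of the 45 members, Eef2, against 4.10% of protein-coding genes, and on the other strand in 0 members against 1.39%. Of the 44 matched members that reached a mean of 10 normalized counts, the 17 with a pyrimidine run had a median level of 1022 normalized counts per kb of exon and a median log2 fold change of -0.00, with 8 positive, in the authors' deposited table. The 27 without one had 480 and -0.03, with 9 positive, so in both sets fewer members were positive than negative. A match describes letters in a window and not a mapped start or a bound factor.

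The mRNAs of nearly all members were detected in these cultures. By the authors' deposited table, 57 members had a mean of 10 or more normalized counts and 44 had 1000 or more. Below 10 lay Eef1akmt3 at 7.28, Eif4ebp3 at 2.76 and Eef1a2 at 0.501, and the oocyte-type cap-binding gene Eif4e1b was listed at 0. The members together took 2.53% of the summed means in the authors' deposited table, and elongation factors alone made up 49.1% of the members' sum. Eef1a1, which encodes the carrier of aminoacyl-tRNA (chromosome 9, 78478449 to 78489151, minus strand), reached 105764 normalized counts and Eef2, the translocase (chromosome 10, 81176631 to 81182498, plus strand), 81942 by the authors' deposited table. The other role groups took 19.2% (eIF4 factors), 18.1% (eIF3), 4.14% (start codon selection), 3.79% (eIF2 and its exchange factor eIF2B) and 3.64% (eIF5A and eIF6) of the members' sum.

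**Figure D1:**
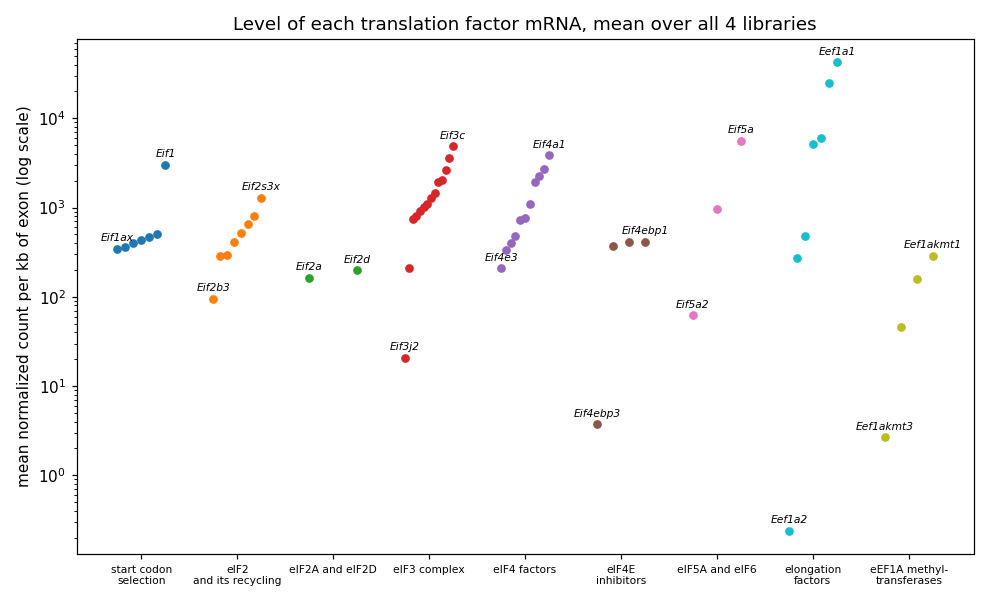
Mean normalized count per kb of annotated exon (log axis) of the 60 members above 0, by role, each point being 1 gene and its mean over all 4 libraries in the authors' deposited table. Eef1a1 at 42424 and Eef2 at 24652 per kb stand above the other members, and Eef1a2 at 0.240, Eif4ebp3 and Eef1akmt3 lie lowest.

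Levels between genes are compared per kb of annotated exon, which lowers genes with long or rarely used annotated exons. On that scale the first 6 were Eef1a1 at 42424, Eef2 at 24652, Eef1g at 6055, Eif5a at 5637, Eef1b2 at 5114 and Eif3c at 4854 mean normalized counts per kb in the authors' deposited table. Of the proteins these encode, eEF1B subunits recharge eEF1A with GTP, and eIF5A, the protein that carries hypusine, helps stalled ribosomes to form peptide bonds. No spread over cultures stands behind this order, so neighbours in it cannot be told apart. In several paralogue families 1 gene stood well above another. Eif4a1 lay 5.26 times above Eif4a2, both of them RNA helicases of the cap-binding complex, per kb in the authors' deposited table. Eif5a lay 91.0 times above Eif5a2, and Eif1 7.46 times above Eif1b, per kb in the authors' deposited table. The scaffold genes Eif4g1 and Eif4g2 were near each other at 2272 and 1924 per kb, with Eif4g3 at 480 per kb in the authors' deposited table. The cap-binding genes Eif4e (335 per kb) and Eif4e2 (398 per kb) were also close, above Eif4e3 at 209 per kb in the authors' deposited table. Among 12 core genes of the eIF3 complex the level per kb ran from 738 (Eif3e) to 4854 (Eif3c) by the authors' deposited table, a 6.58-fold range. The exchange factor eIF2B spanned a 6.90-fold range, from Eif2b3 at 94.7 to Eif2b5 at 653 per kb, and the 3 eIF2 genes a 2.47-fold range in the authors' deposited table.

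The comparison of guide with empty vector asked whether the mRNAs of these factors differ when Adarb1, which encodes the RNA editing enzyme ADAR2, is targeted. By the authors' deposited table (DESeq2 Wald test, Benjamini-Hochberg over every gene with a fold change), 0 of the 61 members and 0 of 29383 genes (0%) passed an adjusted p of 0.05. At an unadjusted p of 0.05 the authors' deposited table again holds 0 members, against 61 of 29383 genes (0.208%). Of genes with a mean of at least 10, 60 of 14547 passed it, and of protein-coding genes at 1000 or more, 44 of 3635. Each of these shares is smaller than the threshold alone would pass if no gene changed. The standard deviation of fold change over SE was 0.585 over all genes with a mean of at least 10. It was 0.669 over the members there and 0.729 over protein-coding genes at 1000 or more. A matching SE would give a unit spread, so these p-values and intervals are not calibrated, and the reason was not tested. The smallest unadjusted p among members was 0.116, that of Eif5b. Fold changes were small: over the 57 members with a mean of at least 10 the log2 fold change ran from -0.19 to 0.20 with a median of -0.01, 25 positive and 32 negative, in the authors' deposited table. All 14547 genes of the table at this level had a median of 0.00 with 50.5% positive, and the 3635 protein-coding genes that reached a mean of 1000 had -0.00 with 49.2% positive. Adarb1 mRNA itself lay at 0.11 ± 0.12 (log2, SE), unadjusted p = 0.381 (DESeq2), by the authors' deposited table. A Cas9 cut need not lower mRNA, so this value does not check the labels. With 2 cultures in a group, the SE rests on these 4 libraries and on what the authors' model assumed. The model formula is not given, so whether the pairing by donor mouse entered the SE is not known.

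Taken as deposited, the intervals of most of these genes were narrow, though they are not calibrated, as said above. The 95% interval of the log2 fold change (from the SE, normal approximation) lay within 1.5-fold in either direction for 53 of the 57 members (93.0%), against 56.6% of all protein-coding genes at a mean of 10 or more and 99.3% at 1000 or more. The median SE was 0.11 over the members, against 0.22 and 0.12 over those protein-coding genes, in the authors' deposited table. For Eef1a1 the interval ran from 0.923-fold to 1.14-fold, and for Eef2 from 0.976-fold to 1.19-fold, in the authors' deposited table. The 4 members not bounded within 1.5-fold were Eif3j2, Eef1akmt1, Eef1akmt2 and Eef1akmt4, whose means were 49.0, 271, 276 and 73.6 normalized counts in the authors' deposited table.

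**Figure D2:**
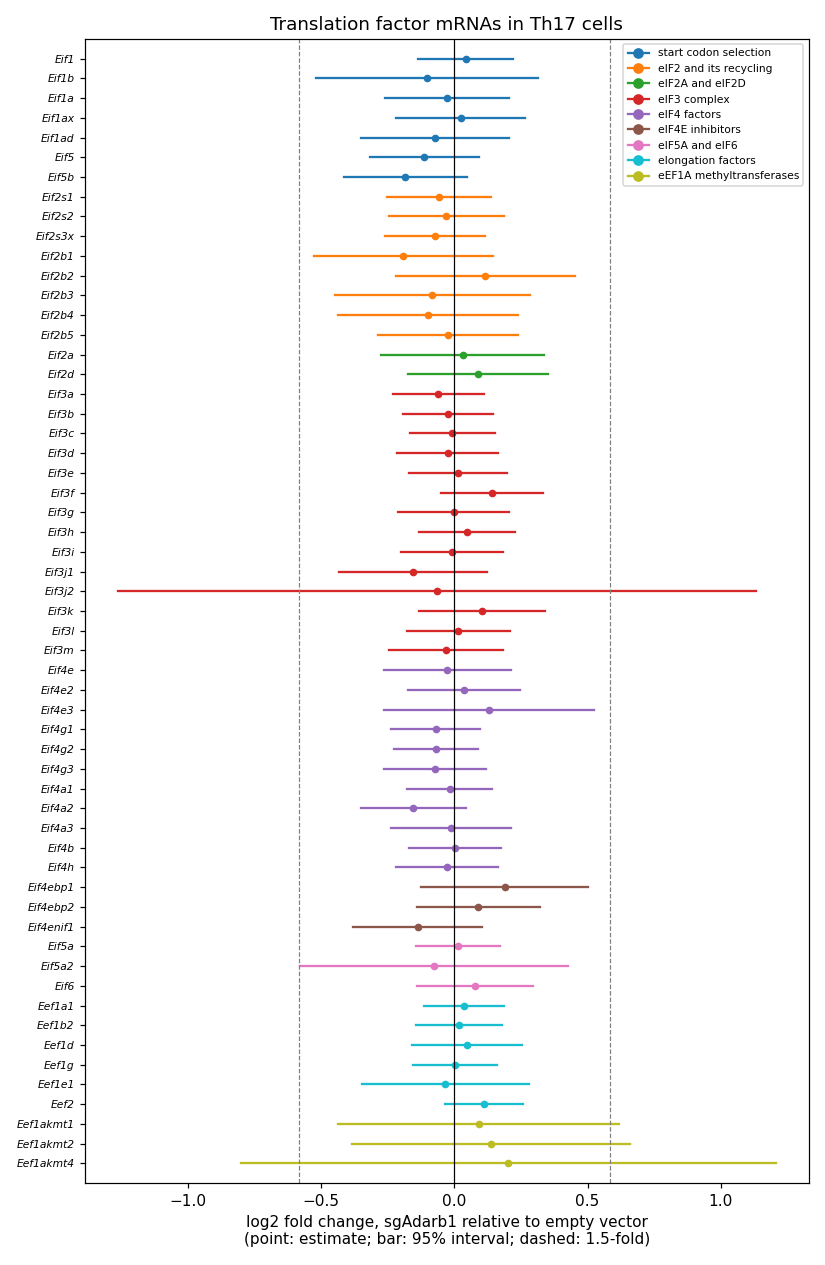
Log2 fold change of sgAdarb1 relative to empty vector for the 57 members with a mean of at least 10, with 95% intervals from the SE in the authors' deposited table, ordered and coloured by role; dashed lines mark 1.5-fold. Every interval crosses 0, and 53 of 57 lie between the dashed lines.

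The genes grouped under start codon selection, with Eif1ad taken in by its name, lay mostly on the negative side. In this group 5 of 7 were negative, with a median log2 fold change of -0.07, and none passed. Eif5b, which encodes the GTPase that joins the ribosomal subunits (chromosome 1, 37998010 to 38055579, plus strand), had a mean of 3485 and a log2 fold change of -0.18 ± 0.12 (SE) with an unadjusted p of 0.116 (DESeq2) by the authors' deposited table. Its interval, from -0.41 to 0.05, includes 0. Of its exon length 16.8% overlaps Rev1 on the opposite strand, whose mean was 363 by the authors' deposited table. Whether reads were counted by strand is not stated, so reads of this stretch cannot be assigned. Eif5, the gene for the GTPase-activating partner of eIF2, had a mean of 3210 and lay at -0.11 ± 0.10 (-0.07 without the trend on GC content and exon length fitted over all 14547 genes) by the authors' deposited table. Eif1, which guards start codon choice, had the highest mean of the group (6295) and lay at 0.04 ± 0.09 (0.01 without that trend) in the authors' deposited table. The remaining 4, the eIF1A genes Eif1a and Eif1ax, Eif1b and the related Eif1ad, ranged from -0.10 to 0.02, with Eif1a turning from -0.03 to 0.01 once that trend is taken out.

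Genes of eIF2, the carrier of initiator tRNA, and of its exchange factor eIF2B were negative in 7 of 8, with a median of -0.07, and again none passed. The 3 subunit genes of eIF2 lay close together, with Eif2s1 at -0.06 ± 0.10 (-0.02 with the trend taken out), Eif2s2 at -0.03 ± 0.11 (0.03 with the GC and length trend removed) and Eif2s3x at -0.07 ± 0.10 by the authors' deposited table. Eif2s3x had the highest mean of these genes, 4908, and its Y-linked counterpart Eif2s3y was listed at 0 by the authors' deposited table. The eIF2B genes spread more widely: Eif2b1, a regulatory subunit (chromosome 5, 124570213 to 124579131), was at -0.19 ± 0.17 (unadjusted p = 0.261, DESeq2) on a mean of 754, and Eif2b2 at 0.12 ± 0.17 (0.06 with the trend taken out) on 767, by the authors' deposited table. Their intervals overlap, and the other 3 lay between -0.10 and -0.03. The alternative initiator tRNA carriers Eif2a and Eif2d were at 0.03 ± 0.16 (0.08 with the trend taken out) and 0.09 ± 0.13 in the authors' deposited table.

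The 14 eIF3 genes, whose complex bridges mRNA and the small subunit, were split into 5 positive and 9 negative with a median of -0.01. The most abundant by mean, Eif3a (17057) and Eif3c (17042), were at -0.06 ± 0.09 and -0.01 ± 0.08 (-0.03 and -0.02 with the trend taken out) in the authors' deposited table. Eif3f (chromosome 7, 108934417 to 108942951, plus strand) had the largest positive value for its SE in the complex, at 0.14 ± 0.10 on a mean of 4236 (unadjusted p = 0.144, DESeq2) by the authors' deposited table, and an interval from -0.05 to 0.33. The partner subunits eIF3h and eIF3m form a module with eIF3f, and their genes lay at 0.05 ± 0.09 and -0.03 ± 0.11 in the authors' deposited table, Eif3h moving to 0.01 and Eif3m to 0.00 on the positive side with the GC and length trend removed. On the negative side stood Eif3j1, the gene for the loosely bound eIF3j, at -0.16 ± 0.14 in the authors' deposited table. Its copy Eif3j2 shares 91.8% of the 50-base windows of its longest transcript with other genes, nearly all with Eif3j1, so its mean of 49.0 could hold reads of Eif3j1 and is uncertain. Eif3j1 also overlaps Spg11 on the opposite strand over 19.0% of its exon length.

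Among 11 genes with an eIF4 name at this level, 8 were negative and 3 positive, with a median of -0.03. Not all of them encode factors that bind the cap or open the leader. The 3 scaffold genes lay within 0.01 of each other: Eif4g1 at -0.07 ± 0.09, Eif4g2 at -0.07 ± 0.08 and Eif4g3 at -0.07 ± 0.10 in the authors' deposited table. With the GC and length trend removed they separated to -0.10, -0.02 and -0.07. Eif4a2 (chromosome 16, 23107444 to 23114136, plus strand) had the largest negative value for its SE among the eIF4 genes, at -0.15 ± 0.10 on a mean of 3902 (unadjusted p = 0.125, DESeq2) by the authors' deposited table, and an interval from -0.35 to 0.04. Its paralogue Eif4a1 was at -0.02 ± 0.08 on a mean of 16668, and Eif4a3, the member of the exon junction complex, at -0.01 ± 0.12, in the authors' deposited table. A test of the difference between the helicase genes was not possible without values per culture. The cap-binding gene Eif4e was at -0.03 ± 0.12 (0.02 with the trend removed), Eif4e2 at 0.04 ± 0.11 and Eif4e3 at 0.13 ± 0.20 in the authors' deposited table. The helicase cofactor genes Eif4b and Eif4h were at 0.00 ± 0.09 (-0.01 with the trend removed) and -0.03 ± 0.10 by the authors' deposited table.

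Genes of proteins that hold eIF4E back were read apart from the factors. The inhibitor that mTOR phosphorylates, Eif4ebp1, was at 0.19 ± 0.16 (unadjusted p = 0.239, DESeq2) on a mean of 902, and Eif4ebp2 at 0.09 ± 0.12 on 2162, by the authors' deposited table. Eif4enif1, which encodes the eIF4E transporter, was at -0.14 ± 0.12 in the authors' deposited table. All 3 intervals include 0. Eif4ebp3, at 1.47 ± 2.46 on a mean of 2.76 by the authors' deposited table, cannot be read, and it shares 65.5% of its 50-base windows with an overlapping gene, AC115631.1. Phosphorylation, which sets the activity of these proteins and of eIF2, was not measured.

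Elongation factor genes lay on the positive side in 5 of the 6 with a mean of at least 10, with a median log2 fold change of 0.03. Eef2 was at 0.11 ± 0.07 (0.05 without the GC and length trend) with an unadjusted p of 0.137 (DESeq2), and Eef1a1 at 0.04 ± 0.08, in the authors' deposited table. The exchange factor genes were at 0.02 ± 0.08 (Eef1b2), 0.05 ± 0.11 (Eef1d) and 0.00 ± 0.08 (Eef1g) in the authors' deposited table, and Eef1g turned to -0.03 without the GC and length trend. Eef1e1, the member that works with aminoacyl-tRNA synthetases, was at -0.03 ± 0.16 in the authors' deposited table. Processed pseudogenes share much sequence with some of these genes: 59.2% of the 50-base windows of the longest Eef1a1 transcript and 64.3% of those of Eef1g occur in another gene. Their closest copies, Gm13456 and Gm4366, were low, at a mean of 133 and 159 by the authors' deposited table. Members of other groups share windows too, among them Eif2s3x (36.2%), Eif4a1 (33.3%) and Eif1 (31.6%). How reads that match several genes were counted was not tested, so the levels of such members per kb are uncertain. Next to elongation, Eif5a had a mean of 13399 and was at 0.01 ± 0.08 by the authors' deposited table, and this turned to -0.04 without the GC and length trend. The antiassociation factor gene Eif6 was at 0.08 ± 0.11 and Eif5a2 at -0.08 ± 0.26 (0.01 and -0.03 without that trend) in the authors' deposited table. The 3 eEF1A methyltransferase genes with a mean of at least 10 lay between 0.09 and 0.20, with SE from 0.27 to 0.51, in the authors' deposited table.

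**Figure D3:**
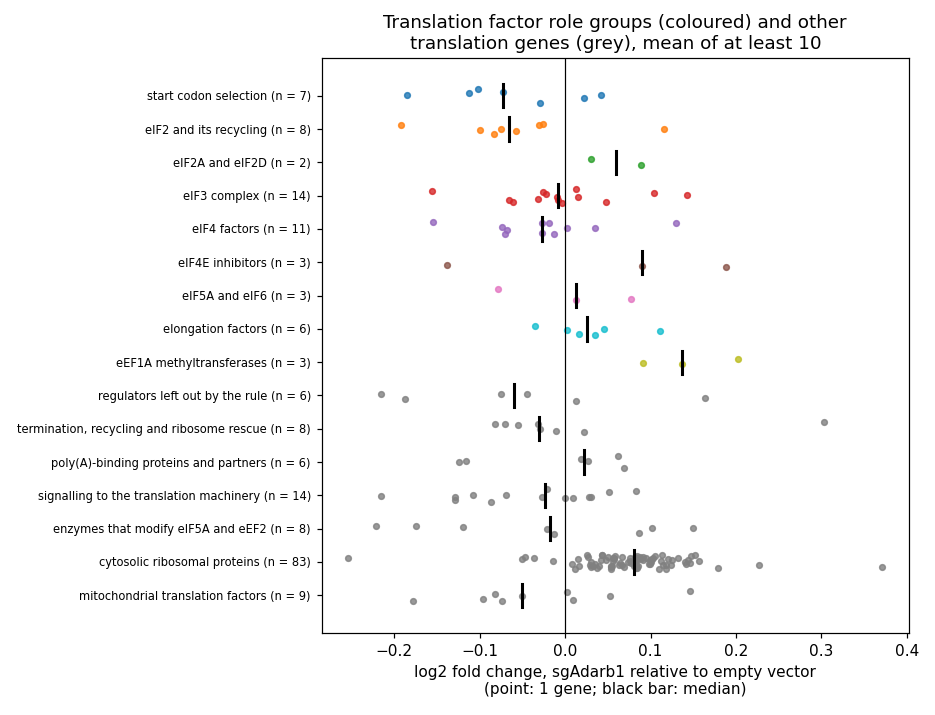
Log2 fold change of sgAdarb1 relative to empty vector in the authors' deposited table, for genes with a mean of at least 10, by role group of the translation factors (coloured) and by list of other translation genes (grey); a point is 1 gene and a black bar the median. Translation factor groups lie on both sides of 0, with medians from -0.07 to 0.14, while 78 of 83 ribosomal protein genes lie above 0.

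Other genes of the pathway were read from lists written down with earlier results of these data known, and none of their genes had an unadjusted p below 0.05 in the authors' deposited table. Cytosolic ribosomal proteins, whose mRNAs belong to the TOP class, were positive in 78 of 83 with a median of 0.08. The translation factors, only some of which have TOP mRNAs, were positive in 25 of 57 with a median of -0.01. These lists also differ in median mean (9752 for ribosomal proteins, 3111 for the factors) and median exon length (1770 and 3639 bases). Genes of the same libraries are not independent replicates, and whether TOP class bears on the signs was not tested. Without the GC and length trend, ribosomal proteins were positive in 67 of 83 with a median of 0.05, and the factors in 26 of 57 with -0.01. Genes of termination, recycling and ribosome rescue were positive in 2 of 8 with a median of -0.03, among them Abce1, which splits ribosomes after termination, at -0.07 ± 0.09, and the rescue factor Pelo at 0.30 ± 0.36, in the authors' deposited table. Poly(A)-binding proteins and partners were positive in 4 of 6, with Pabpc4 at -0.12 ± 0.11 and Paip2, an inhibitor of poly(A)-binding protein, at 0.07 ± 0.11 in the authors' deposited table. Among signalling genes that control the factors 6 of 14 were positive, with Ppp1r15a, which directs removal of phosphate from eIF2, at -0.22 ± 0.20 and the TOP mRNA repressor Larp1 at -0.07 ± 0.08 in the authors' deposited table. Among the regulators that the naming rule leaves out 2 of 6 were positive. The eIF2 kinase gene Eif2ak2, which encodes the double-stranded RNA sensor PKR, was at -0.19 ± 0.13 with an unadjusted p of 0.148, and Eef2kmt, a methyltransferase of eEF2, at -0.22 ± 0.27, in the authors' deposited table. Enzymes that modify eIF5A and eEF2 were positive in 3 of 8, led by Dph5 at -0.12 ± 0.15 and Dph7 at -0.22 ± 0.34, and mitochondrial translation factors in 4 of 9, led by Mrrf at -0.18 ± 0.25 and Gfm1 at -0.10 ± 0.14, in the authors' deposited table.

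The fold change of abundant members had a negative correlation with exon length, but its sign did not follow length in steps. Over the 44 members with a mean of at least 1000, the log2 fold change and log2 exon length had a Pearson r of -0.42 and a Spearman rho of -0.40 across genes of the same 4 libraries, which are not independent replicates. Among the 14 shortest (1612 to 2891 bases of exon) 9 were positive with a median of 0.01 by the authors' deposited table. The middle 15 (3324 to 5784 bases) and the 15 longest (5830 to 11063 bases) each had 5 positive, with medians of -0.02 and -0.06 by the authors' deposited table. Once the GC and length trend of the 14547 genes was taken out, these medians were 0.01, -0.01 and -0.02, with 8 of 14, 5 of 15 and 7 of 15 positive. The fold change also went with GC content over the same 44 genes (r = 0.39, rho = 0.35).

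**Figure D4:**
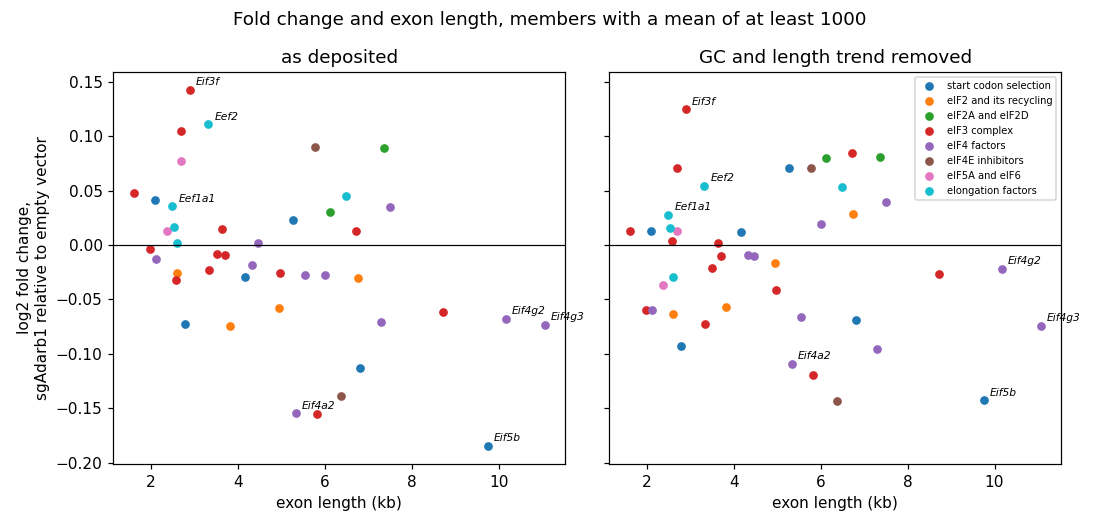
Log2 fold change of sgAdarb1 relative to empty vector against annotated exon length in kb for the 44 members with a mean of at least 1000, coloured by role, as in the authors' deposited table (left) and without the trend on GC content and length (right). The 15 longest members have a median of -0.06 on the left and -0.02 on the right.

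The culture was T cell by its markers. The 4 helper T cell markers had means from 4682 to 15286 in the authors' deposited table and the 6 Th17 markers from 566 to 3789. B cell markers (3 genes, 129 to 414), CD8 T cell markers (2 genes, 218 to 287), myeloid markers (4 genes, 2.14 to 19.6) and mast cell markers (3 genes, 0.521 to 28.7) were lower in the authors' deposited table. Translation factors are made by every cell, and fewer cells of a type cannot be told apart from less RNA per cell in bulk samples.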

How the data were processed

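RNA sequencing of 4 cultures was read from 1 results table. Per the submitters' processing notes, the build was mm10 and the tools included STAR (2.6.1a), featureCounts and DESeq2 (1.18.1). No source used here gives the model formula, annotation or strand setting. Per the file headers the authors deposited a mean signal (counts divided by size factors, averaged over libraries, called the mean normalized count), a log2 fold change with its SE on the log2 scale, a Wald score and p-values. The Wald score equalled fold change over SE, and a Benjamini-Hochberg adjustment over the 29383 genes that have a fold change gave the authors' adjusted p. The other 26067 had a mean of 0. The 4 columns of single libraries match no sample label and were not used, so no model was refitted.

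All 55450 identifiers matched GENCODE M21 (GRCm38). Exon length is the union of annotated exons, and GC content that of the longest transcript. GC content and log2 length were fitted to the fold change as a quadratic trend, weighted by the inverse squared SE, over 14547 genes whose mean reached 10. It was tested on simulated data, as was the adjustment. Sequences shared with other genes were counted as identical 50-base windows in GENCODE transcripts. Every member may be named; of the other lists, the 2 genes of largest absolute Wald statistic were. Members and lists were chosen with earlier results of these data known, and lists are described without a test. Python 3.11.15, pandas 2.3.3, NumPy 2.4.6 and SciPy 1.17.1 were used.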

Additional observations from a re-analysis of the deposited data

How the results depend on the processing

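The count of members past the threshold was 0 under each setting run: an adjusted p of 0.1, adjustment restricted to genes whose mean reached 10 or 50, the same for protein-coding genes at 10, and the trend on GC content and length taken out. Between 2 and 3 genes of the whole table passed under these settings. The members' median log2 fold change stayed between -0.02 and -0.01 under 8 alternatives, which covered filters on the mean, an inverse-variance weighted mean, recentring, the GC and length trend and omission of eEF1A methyltransferases. The filter at 1000 was added after the data were seen. Recentring on the median of all genes moved values by 0.00 and turned no sign. Removal of the trend turned 7 of 57 single members and 1 of 16 list medians, that of eIF5A and eIF6, from 0.01 to -0.03; no member moved by more than 0.76 of its SE. No paired analysis was possible because single libraries could not be matched to a sample. Hence edgeR and DESeq2 refits and omission of a library were not run. The deposited SE, at a median of 0.11 over the members, sets what could be detected.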

Other observations

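Several members host genes of small RNAs on the same strand, 27 in 16 hosts, mostly small nucleolar RNAs that guide RNA modification. Of these, 13 lie for the most part inside an annotated exon of the host. The authors' deposited table lists all 13 at 0. Of the other 14, 3 were at 0 and 11 above it, the highest being Gm25835 in Eif4a1 at 63.8 (log2 fold change -0.39 ± 0.57) and Snora41 in Eef1b2 at 11.7 (0.49 ± 1.22) by the authors' deposited table. Eif4a2 alone hosts 6 such genes, 5 of them inside annotated exons and at 0, among them Snord2 and Snora81. No source used here says how the counting treated reads in a host exon, and its part in these zeros was not tested.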
